A study of Mus musculus with 4 samples.

Results

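The 9 genes described here encode the acetylcholine receptor of skeletal muscle and the proteins that gather it under the motor nerve ending. They are the receptor subunit genes Chrna1, Chrnb1, Chrnd, Chrne and Chrng, the kinase gene Musk, and Rapsn, Dok7 and Lrp4, out of 19938 genes named on the array. They were selected by symbol as neuromuscular junction genes with the genotype differences of these arrays already known, so those differences are given as a description and nothing is inferred from their p-values. Each gene had 1 probe set, a group of probes read as 1 value. RNA was taken from whole dorsal skin of C57Bl6 animals on postnatal day 22, with hair follicles in telogen (the resting phase), collected at ZT22, that is 22 h after lights on. The gene deleted was Bmal1, listed as Arntl, whose product pairs with CLOCK to drive circadian transcription. The 2 controls were heterozygous, so each carried 1 wild-type and 1 mutant Bmal1 allele. The 2 knockouts had no functional Bmal1 from the germline on, hence in every tissue. No wild-type mice are among the 4, and every mouse gave 1 Affymetrix whole-transcript array. The comparison asked which skin transcripts differ when Bmal1 is lost.

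The muscle receptor is a ring of subunits around a cation channel that opens when nerve endings release acetylcholine. Fetal muscle uses the gamma subunit, and adult endplates replace it with epsilon, while alpha, beta and delta are common to both forms. Agrin from the nerve binds LRP4, LRP4 activates the kinase MuSK with its adaptor DOK7, and rapsyn then anchors the receptors in dense clusters. Mouse back skin is underlain by a thin sheet of striated muscle, the panniculus carnosus. In such bulk tissue, fewer cells of a type and less RNA per cell cannot be told apart.

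Values are log2 signals after quantile normalization of the 4 arrays, and differences are knockout minus heterozygous. Arntl read 8.90 and 9.08 in the heterozygous mice, against 8.29 and 8.16 in the knockouts, a difference of -0.76 (SE 0.12, n = 2 per genotype; limma adjusted p = 0.015, and from 0.0025 to 0.102 over the alternatives). Its probe set may hold probes outside the deleted part. Of 16341 probe sets tested with limma, 323 (1.98%) passed an adjusted p of 0.05, 241 higher and 82 lower in the knockout arrays; after median centring 780 were higher and 133 lower. That count fell to 0 of 17557 when probe sets annotated with several genes also entered the filter and the test, with 2713 at an unadjusted p under 0.05 and Arntl at the adjusted p of 0.102. Without knockout array 1 it was 37. Every call below is therefore one under the setting with single-gene probe sets.

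The alpha and beta subunits were about double in the knockout arrays. Chrna1, whose product carries the acetylcholine-binding site, read 7.19 and 7.31 in the heterozygous mice, against 8.26 and 8.29 in the knockouts. The genotypes lay 0.95 apart at their closest, and the arrays of a genotype differed by 0.13 and 0.03. The difference was 1.03 (SE 0.12, n = 2 per genotype), a 2.04-fold signal. Chrnb1, the beta subunit, read 7.41 and 7.30 in the heterozygous mice, against 8.45 and 8.20 in the knockouts. Again no heterozygous array reached a knockout array, and the difference was 0.97 (SE 0.13), or 1.96-fold. Of all tested probe sets, 57 had a larger positive difference than Chrna1 and 67 a larger one than Chrnb1. With 1 array left out in turn, Chrna1 ran from 0.97 to 1.13 and Chrnb1 from 0.82 to 1.09.

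Upstream sequences of both genes are shown because E-boxes, the CANNTG letters read by the myogenic factors of the MyoD family and by clock factors, lie in them. The sequences are RefSeq's, in GRCm38.p6, 250 bases up to the transcription start and 5′ to 3′ on the gene's strand, with every E-box in capitals. Musk, the gene with the next largest difference, is set beside them.
Chrna1, chr2:73580339-73580588, minus strand: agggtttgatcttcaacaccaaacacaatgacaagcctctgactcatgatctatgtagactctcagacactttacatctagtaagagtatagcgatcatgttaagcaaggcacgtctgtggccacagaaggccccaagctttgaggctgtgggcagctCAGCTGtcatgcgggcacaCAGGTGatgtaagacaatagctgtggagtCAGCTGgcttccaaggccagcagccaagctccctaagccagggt
Chrnb1, chr11:69795938-69796187, minus strand: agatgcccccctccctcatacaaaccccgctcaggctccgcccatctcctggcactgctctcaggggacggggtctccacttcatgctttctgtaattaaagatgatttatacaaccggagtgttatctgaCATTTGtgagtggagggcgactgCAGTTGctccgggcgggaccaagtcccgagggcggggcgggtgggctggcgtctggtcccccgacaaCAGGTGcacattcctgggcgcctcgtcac
Musk, chr4:58285712-58285961, plus strand: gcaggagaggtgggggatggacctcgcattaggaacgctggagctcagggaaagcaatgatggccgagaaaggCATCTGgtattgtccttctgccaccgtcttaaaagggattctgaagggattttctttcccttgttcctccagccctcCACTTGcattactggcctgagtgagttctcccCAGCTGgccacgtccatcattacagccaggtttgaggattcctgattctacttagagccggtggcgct
Each of the 3 windows held 3 E-boxes. Of all 32851 promoter windows of this length, 66.2% held at least 1 E-box, 31.8% at least 2 and 12.2% at least 3. The form CAGCTG occurred at 92 and 44 bases before the start in Chrna1, once in Musk at 68 bases, and not in Chrnb1; 13.0% of all windows held at least 1 and 1.26% at least 2. The form CACGTG, the canonical clock E-box, was in 6.02% of all windows and in none of these 3. Dok7 had 2 entries, of which one window held 1 E-box, CAGATG at 149 bases, and the other none. Both strands were searched, and CAGCTG and CACGTG are themselves E-boxes by the wider letters.

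The gamma subunit was lower and the epsilon subunit higher in both knockout arrays, and neither passed the adjusted threshold. Chrng, the embryonic gamma subunit, read 7.28 and 7.35 in the heterozygous mice, against 7.05 and 6.85 in the knockouts, so that both knockout arrays were lower. Its difference was -0.36 (SE 0.14, n = 2 per genotype), a knockout signal of 77.7% of the heterozygous one. Chrne, the adult epsilon subunit, read 7.16 and 7.03 in the heterozygous mice, against 7.44 and 7.25 in the knockouts. Both knockout arrays were higher, the closest pair of arrays lay 0.09 apart, and the difference was 0.25 (SE 0.14), or 1.19-fold. Without knockout array 1 the Chrne difference was 0.14. Both signals were low, with means at the 34.7th percentile of named probe sets for Chrng and the 36.7th for Chrne. The filter lay at the 25th. Of all tested probe sets, 4.02% had a lower difference than Chrng and 15.5% a larger one than Chrne.

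Levels of different probe sets cannot be compared, but the change of one against the other can. Chrng minus Chrne was 0.12 and 0.32 in the heterozygous mice, against -0.39 and -0.40 in the knockouts. The knockout arrays were close to each other and both lay below both heterozygous arrays. The Chrng difference minus the Chrne difference was -0.61, against a pooled SD of 0.10 within genotypes. It ran from -0.72 to -0.53 with 1 array left out in turn and was -0.61 with the values as deposited. Since the subunits were chosen for this comparison with their values known, it carries no test; an exact two-sided permutation test of 2 against 2 arrays could not fall below p = 0.333.

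**Figure D1:**
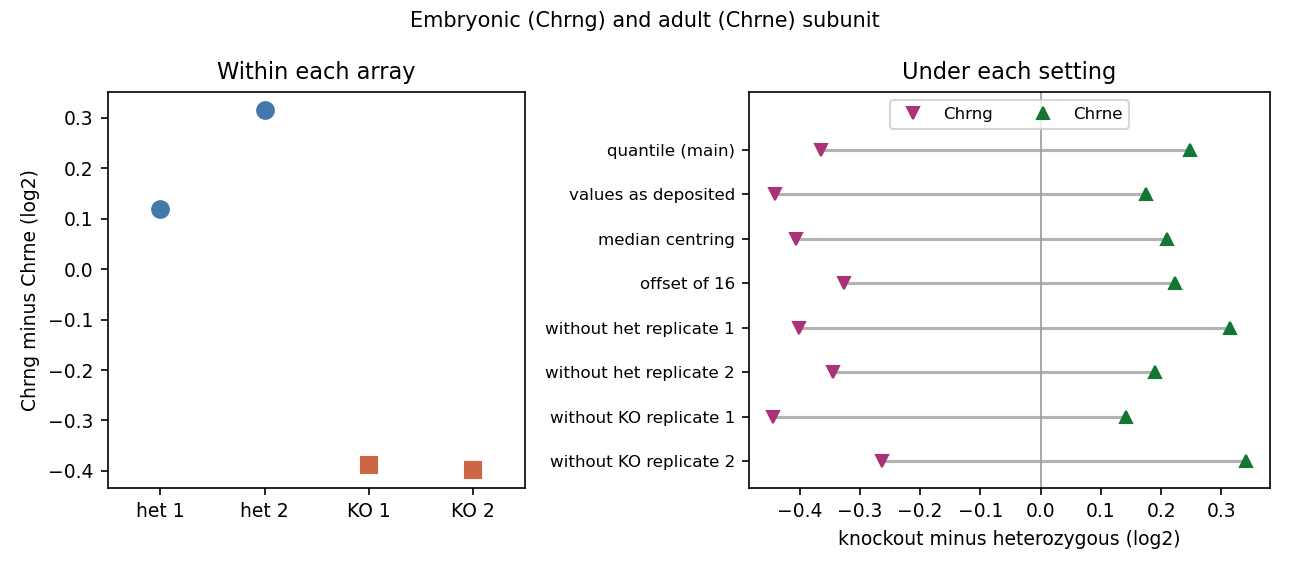
Left, the log2 signal of Chrng minus that of Chrne in each array (circles heterozygous, squares knockout); the zero of this axis has no meaning because the probe sets differ. Right, the knockout minus heterozygous log2 difference of each gene under every scaling and with each array left out; Chrng lay below 0 and Chrne above 0 in all 8 settings shown.

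The upstream windows of this pair are shown for the motifs that set them apart, again with E-boxes in capitals, together with the N-box CCGGAA, a site for ETS-family factors described at synaptic genes.
Chrng, chr1:87205561-87205810, plus strand: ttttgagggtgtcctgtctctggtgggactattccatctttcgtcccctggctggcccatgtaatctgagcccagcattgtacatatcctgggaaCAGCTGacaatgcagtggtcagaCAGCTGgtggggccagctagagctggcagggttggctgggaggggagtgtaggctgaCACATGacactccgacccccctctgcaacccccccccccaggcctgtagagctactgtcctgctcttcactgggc
Chrne, chr11:70619195-70619444, minus strand: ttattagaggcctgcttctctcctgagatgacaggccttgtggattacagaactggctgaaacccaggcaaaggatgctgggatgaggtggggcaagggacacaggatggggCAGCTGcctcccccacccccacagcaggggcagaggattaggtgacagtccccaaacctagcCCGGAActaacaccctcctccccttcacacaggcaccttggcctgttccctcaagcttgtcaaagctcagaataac
Chrng held 3 E-boxes, CAGCTG at 155 and 132 bases and CACATG at 75 bases before the start, and no N-box. Chrne held 1 E-box, CAGCTG at 138 bases, and 1 N-box at 76 bases. At least 1 E-box was found in 66.2% of all windows and at least 3 in 12.2%. An N-box on either strand was found in 12.0% of all windows, and none was in the Chrna1, Chrnb1 or Musk window. Neither window held CACGTG. These matches describe letters only.

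Chrnd, the delta subunit, was not tested, since its mean of 6.63 lay under the filter value of 6.67. It read 6.79 and 6.68 in the heterozygous mice, against 6.52 and 6.53 in the knockouts. Both knockout arrays were lower, by 0.21 on average, against a pooled SD of 0.06. With the values as deposited the difference was -0.36, and after median centring -0.33. In RefSeq's order Chrnd and Chrng are next to each other on chromosome 1, and these 2 subunit genes were the lower ones, at -0.21 and -0.36.

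**Figure D2:**
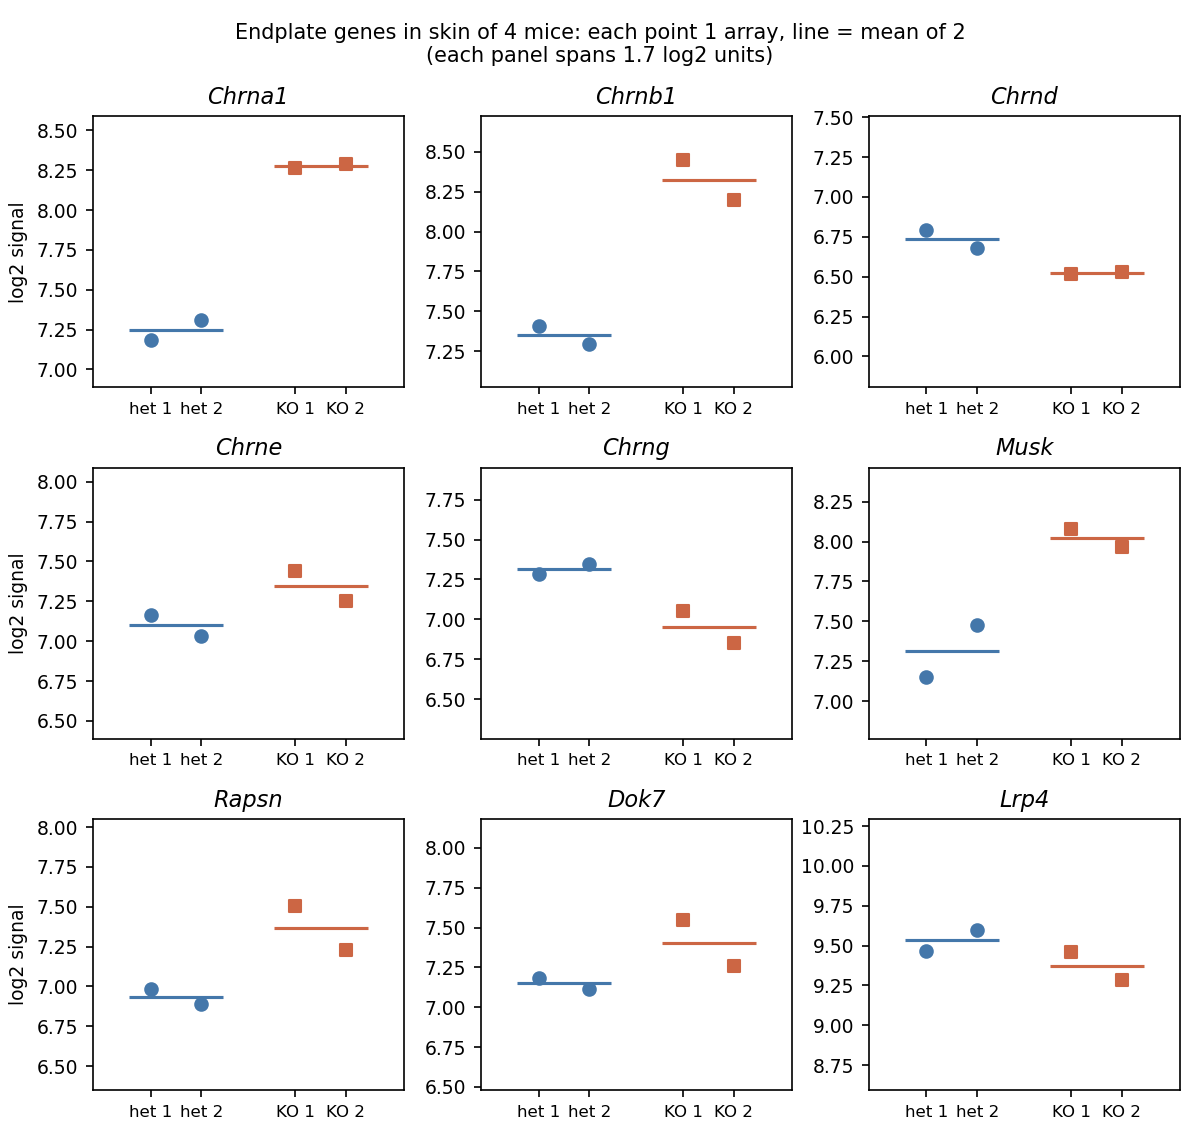
Log2 signal (vertical axis) of each of the 9 genes in the 4 arrays, with circles for heterozygous and squares for knockout mice and a line at the mean of each pair; every panel spans the same height in log2 units but has its own centre. Chrna1, Chrnb1 and Musk show the widest gaps between genotypes, Chrnd, Chrng and Lrp4 are lower in the knockout arrays, and the closest arrays of Lrp4 lie 0.0055 apart.

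Among the 4 clustering genes Musk was past the adjusted threshold, and Rapsn, Dok7 and Lrp4 were not. Musk, the kinase that starts receptor clustering, read 7.15 and 7.48 in the heterozygous mice, against 8.08 and 7.97 in the knockouts. The heterozygous arrays differed by 0.33, more than for any other of the 9 genes, yet both lay under the knockout arrays. The difference was 0.71 (SE 0.14, n = 2 per genotype), a 1.64-fold signal, and leaving out heterozygous array 1 gave 0.56, leaving out the other 0.91.

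Rapsn encodes rapsyn, the scaffold that binds the receptor from inside the fibre. It read 6.98 and 6.89 in the heterozygous mice, against 7.51 and 7.23 in the knockouts, a difference of 0.43 (SE 0.15). Dok7, the adaptor that activates MuSK from within, read 7.19 and 7.11 against 7.55 and 7.26, a difference of 0.25 (SE 0.14). Knockout array 1 was the higher of the pair in both genes. Without it the Rapsn difference was 0.28 and that of Dok7 0.10, while without knockout array 2 that of Dok7 was 0.39, so the size of both depended on the knockout array used. Both signals were also low, with means at the 35.1th percentile of named probe sets for Rapsn and the 37.9th for Dok7.

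Lrp4, the receptor for agrin, is made by many cell types beside muscle. It read 9.47 and 9.60 in the heterozygous mice, against 9.46 and 9.29 in the knockouts. The difference was -0.16 (SE 0.12), and knockout array 1 lay just under heterozygous array 1. With the values as deposited the genotypes overlapped and the difference was -0.05, and after median centring it was -0.01. Leaving out knockout array 1 gave -0.25, leaving out the other knockout array -0.07, and leaving out heterozygous array 2 gave -0.09.

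Over the 9 genes, the knockout pair lay wholly above the heterozygous pair in 6 and wholly below it in 3. Of all named probe sets 46.2% showed such a separation, 23.2% higher and 23.1% lower, and of those tested 49.8% did. With the values as deposited 8 of the 9 were separated. The median difference over the 9 was 0.25, against 0.02 over all tested probe sets; leaving out knockout array 1 gave 0.14 and leaving out the other gave 0.39. Of the 8 tested genes, 3 (Chrna1, Chrnb1 and Musk) were past the adjusted threshold, all 3 higher, where 1.98% of all tested probe sets were (1.47% higher and 0.502% lower), and 5 had an unadjusted p under 0.05, where 17.9% did. Since these values were known when the genes were listed, nothing is read from those counts. With limma the count of 3 was 0 without knockout array 1 and 0 with probe sets of several genes included, and 2 (Chrna1 and Chrnb1) without knockout array 2 and without a filter. With the filter at the 50th percentile 2 of the 9 genes were tested, and Chrnb1 alone passed.

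The spread within genotypes does not involve the contrast itself. Of the 9 genes, 7 were higher in knockout array 1 than in knockout array 2, and 4 were higher in heterozygous array 2 than in heterozygous array 1. The pooled SD within genotypes ran from 0.06 for Chrnd to 0.17 for Musk.

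Markers of the muscle fibre were listed beside the endplate genes. Of 30 fibre markers, all tested, 26 had a difference above 0 and 4 below, where 54.2% of all tested probe sets were above 0. The adjusted threshold was passed by 9, all 9 of them higher, where 1.47% of all tested probe sets passed on that side. An unadjusted p under 0.05 was reached by 25, the lower Tnnc1 and Myh7 among them, and by 17.9% of all tested probe sets. The 9 were Ampd1, the muscle AMP deaminase (1.34, SE 0.12), Myh1, a fast myosin heavy chain (1.32, SE 0.21), Actn2, an actinin of the Z-disc (1.32, SE 0.20), Des (0.97, SE 0.13), Mylpf (0.84, SE 0.14), Casq1 (0.82, SE 0.12), Pygm (0.69, SE 0.13), Myot (0.68, SE 0.14) and Eno3 (0.67, SE 0.13). That count was 2 without knockout array 1, 14 without heterozygous array 2, 18 after median centring, and 0 with probe sets of several genes included. The 4 lower markers were Tnnc1 (-1.01, SE 0.43), Myh7 (-0.73, SE 0.21) and Tnni1 (-0.58, SE 0.27), genes of slow fibres, and Mb (-0.11, SE 0.23), and none of them passed. Another slow-fibre gene, Tnnt1, was on the other side of 0 (0.59, SE 0.37) and did not pass either. Tnnc1 read 7.06 and 8.89 in the heterozygous mice, against 6.99 and 6.94 in the knockouts, so heterozygous array 2 alone was high. Tnni1 read 7.40 and 8.43, against 7.43 and 7.23, and Myh7 7.55 and 8.31, against 7.27 and 7.15. Mb read 9.54 and 10.32, against 10.02 and 9.61, so all 4 lower markers were highest in heterozygous array 2. Tnnt1 read 7.06 and 8.58, against 8.54 and 8.28, so there heterozygous array 1 alone was low.

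The list's median difference was 0.53, and its summed linear signal ran from 89950 to 94421 in the heterozygous arrays and from 120814 to 143276 in the knockout arrays. No fibre marker was under the filter. Chrna1 and Chrnb1 differed by more than the list's median, and 4 of the 30 markers differed by more than either of them. For Musk that number was 7, for Rapsn 18, for Dok7 24 and for Chrne 25. Chrng, Chrnd and Lrp4 each lay below 27 of the 30. Within the knockout pair 28 of the 30 markers and 7 of the 9 endplate genes were higher in array 1, as were 62.6% of all tested probe sets. Within the heterozygous pair 22 of the 30 markers but 4 of the 9 endplate genes were higher in array 2, as were 33.7% of all tested probe sets. The part of muscle content in the differences of the endplate genes was not tested.

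**Figure D3:**
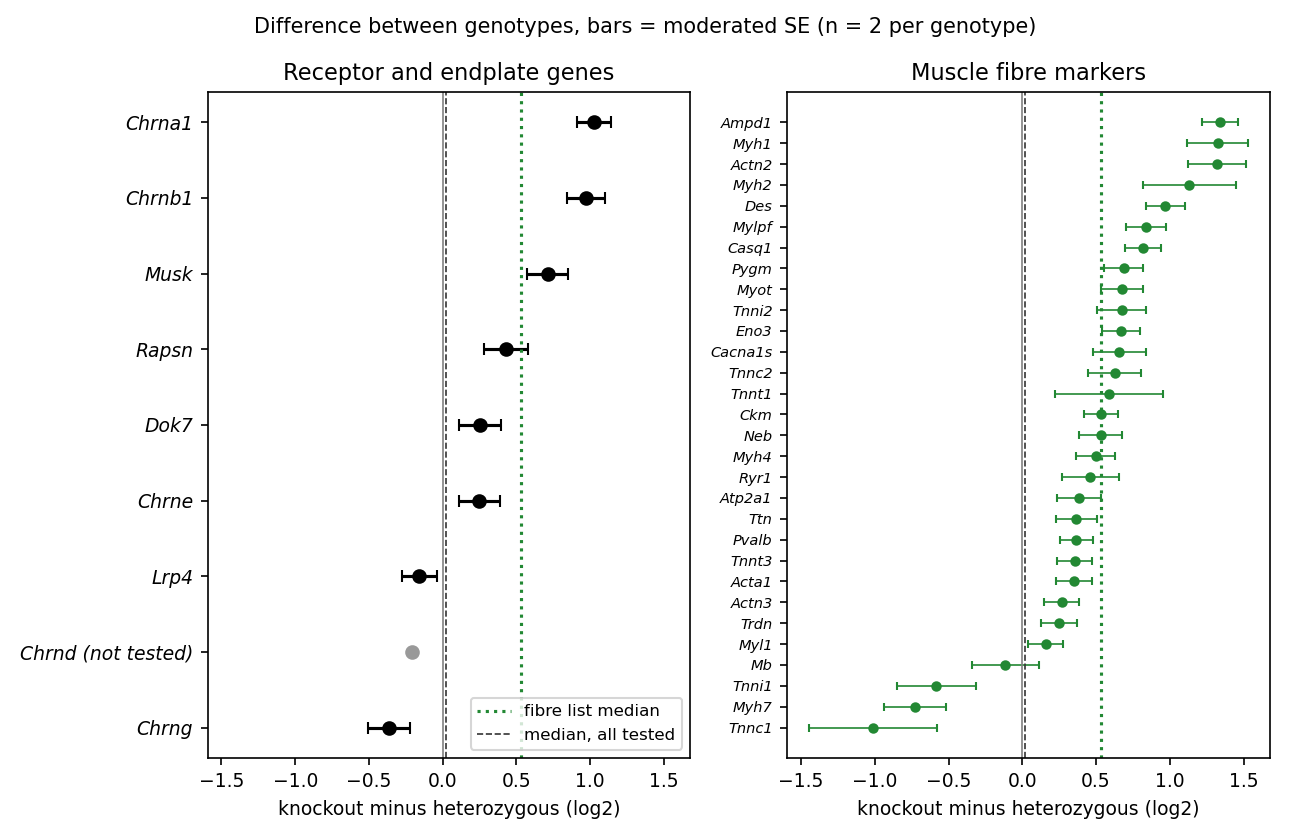
Knockout minus heterozygous log2 difference (horizontal axis) of the 9 receptor and endplate genes (left) and of 30 muscle fibre markers (right), with limma's moderated SE as bars; Chrnd was not tested and has no bar. The dotted line is the fibre list's median of 0.53 and the dashed line the median of 0.02 over all tested probe sets; Chrna1, Chrnb1 and Musk lie right of the dotted line.

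Other proteins of the endplate showed no gene past the adjusted threshold of limma. In a list of 35 scaffold, basal lamina and endplate transcription genes, 31 were named and tested, and 0 passed. An unadjusted p under 0.05 was reached by 6 of the 31 and by 17.9% of all tested probe sets. The list's median was 0.09. The largest separated differences were those of Camk2b, a calcium-dependent kinase (0.54, SE 0.13), and Prkar1a, a regulatory subunit of protein kinase A (0.53, SE 0.14), and on the lower side Nid1 (-0.17, SE 0.12) and Dok4 (-0.17, SE 0.12). Ache, which encodes the enzyme that breaks acetylcholine down, differed by 0.42 (SE 0.14). Dtna (0.41, SE 0.12), Gabpb1 (0.38, SE 0.11) and Dag1 (0.30, SE 0.13) were also higher in both knockout arrays. In this list 11 genes were separated on the higher side and 3 on the lower, where 49.8% of all tested probe sets were separated. Agrn, the agrin gene, differed by 0.11 (SE 0.12), and Colq, the collagen tail that anchors the esterase, by 0.02 (SE 0.12).

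Neuregulin signalling genes, which act on synaptic transcription, gave 0 of 6 past the threshold, with a median of -0.01 and no gene separated. At an unadjusted p under 0.05 there were 0, where 17.9% of all tested probe sets were. Of 5 glycosylation genes mutated in congenital myasthenia 0 passed and 2 had an unadjusted p under 0.05, with Gmppb at 0.93 (SE 0.22) and Alg2 at 0.41 (SE 0.15). Gmppb was a low signal, at 6.79 and 6.06 in the heterozygous mice against 7.47 and 7.24 in the knockouts. Heterozygous array 2 thus lay under the filter value of 6.67 for this gene. Of 17 genes listed for motor neurons and their endings, 11 were tested and 0 passed. Of the 11, 2 had an unadjusted p under 0.05, and the median difference was 0.07. Which cells of the skin gave these signals was not tested. Isl1 differed by 0.49 (SE 0.13) and Chat, the enzyme that makes acetylcholine, by 0.09 (SE 0.13), while Sv2b differed by -0.43 (SE 0.14) and Syt2 by -0.12 (SE 0.15). Among 11 neuronal acetylcholine receptor subunits, relatives of the muscle genes that skin cells can also make, 6 were tested, 0 passed and 1 had an unadjusted p under 0.05. Their median was -0.14, and Chrnb4 (-0.44, SE 0.12) and Chrnb3 (-0.19, SE 0.15) were lower in both knockout arrays.

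Denervation raises receptor genes over the whole fibre, and Chrng among them, so genes that respond to it were listed too. Of 12 tested, 2 passed, both higher, where 1.47% of all tested probe sets passed on that side. Trim63, a ubiquitin ligase of muscle atrophy, differed by 1.11 (SE 0.16, limma adjusted p = 0.011). Fgfbp1, an FGF-binding protein, differed by 0.59 (SE 0.12, limma adjusted p = 0.045). Trim63 read 7.50 and 7.63 in the heterozygous mice, against 8.91 and 8.44 in the knockouts. Fbxo32, of the same list, differed by only 0.02 (SE 0.12), Gadd45a by 0.18 (SE 0.15) and Hdac9 by -0.01 (SE 0.12). Myog, the myogenic factor induced by denervation, differed by -0.07 (SE 0.15) and Myod1 by 0.03 (SE 0.14). Higher in both knockout arrays were Myh8 (0.37, SE 0.14), Sema3a (0.33, SE 0.13) and Ncam1 (0.22, SE 0.11). Hdac4 (-0.56, SE 0.13) and Runx1 (-0.20, SE 0.12) were lower in both. None of these passed. Of the 12 genes, 8 had a difference above 0 and 4 below, where 54.2% of all tested probe sets were above 0. The list was not sorted by the direction in which denervation changes each gene, so these counts are not read as a denervation response. Which cells of the skin gave the signals of this list, Fgfbp1 included, was not tested. The list's median was 0.10, and 5 of the 12 had an unadjusted p under 0.05, where 17.9% of all tested probe sets did. Its count was 0 without knockout array 1 and 1 without heterozygous array 1, without a filter and without a trend. Fgfbp1 did not pass in any of these, nor without heterozygous array 2.

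The adjusted threshold was passed by 1.98% of all tested probe sets and by 1 of 6 tested genes in a list of muscle progenitor genes. It was Myf6, the myogenic factor of mature fibres, which read 8.41 and 8.65 in the heterozygous mice, against 9.48 and 9.68 in the knockouts, a difference of 1.05 (SE 0.13; limma adjusted p = 0.0078). With probe sets of several genes included neither this list nor the denervation list had a gene past the threshold. Of the 6 progenitor genes, 4 had a difference above 0 and 2 below, and the median was 0.07. An unadjusted p under 0.05 was reached by 2 of the 6, Myf6 and Cdh15. Cdh15 (0.30, SE 0.13) was higher in both knockout arrays, while Pax7, which defines satellite cells, differed by -0.06 (SE 0.12). Markers of Schwann cells (median 0.03 over 7), keratinocytes (0.16 over 8), adipocytes (0.15 over 6) and dermal fibroblasts (0.07 over 6) gave 0 past the adjusted threshold; with limma, 2 adipocyte markers and 0 of the others had an unadjusted p under 0.05. Those 2 adipocyte markers differed in opposite directions, Lep by -0.60 (SE 0.22), with overlapping genotypes, and Retn by 0.47 (SE 0.20). The separated markers in these lists were Egr2 (0.17), Lor (0.16), Retn (0.47), Col3a1 (0.20) and Pdgfra (0.08), each higher in the knockout arrays. Of all tested probe sets 49.8% were separated and 17.9% had an unadjusted p under 0.05 with limma. The shared direction of the separated markers is therefore not read as a result.

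Many genes shared the profiles of the subunit pair over the 4 arrays. By root mean square distance between centred log2 profiles, Foxj2, Ltn1, Garre1, Corin and Ankrd11 were nearest to Chrng, at distances of 0.013 to 0.018. Tcf3, Sdr39u1, Akt1, Ess2 and Cse1l were nearest to Chrne, at 0.0034 to 0.0091. Of 16333 probe sets searched, 764 lay within 0.1 of Chrng and 3105 within 0.1 of Chrne, so with 4 arrays such likeness is common.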

How the data were processed

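Per the submitters' processing notes, the authors used Affymetrix Expression Console 1.1.1 and PLIER 2.0. The deposited log2 values cover 35557 probe sets in 4 arrays; the log2 scale is taken from their range (2.54 to 14.9), and the step between arrays and the genome build were not given in the sources used here. Averaging probes along a transcript can hide partial changes, and dim signals compress differences. The array number, not a read depth, limits the precision.

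Quartiles differed by up to 0.34 between the deposited arrays, so the 4 were quantile normalized. Exactly 1 gene was annotated for 21789 probe sets, several for 1621 and no gene for 12147. RefSeq's symbol (GRCm38.p6) was used for the 21698 that were matched by gene identifier. Tested were the 16341 single-gene probe sets above the 25th percentile (6.67), with limma 3.58.1 in R 4.3.3 (eBayes with a trend, 2 residual degrees of freedom, Benjamini-Hochberg over all tested); the procedure was tested on simulated data. SEs are limma's moderated ones. Upstream sequences were found for 6 of the 9 genes, all but Chrnd, Rapsn and Lrp4.

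Replicates are littermates by the series text; at most 0.104% of values were equal between arrays. The genes and lists were chosen with earlier results of these data known. Named were all 9 genes, Arntl, list genes past the threshold or, where none passed, the 2 with the largest separated difference in each direction, and the 5 profiles nearest to Chrng and to Chrne. Ache, Agrn, Colq, Dtna, Gabpb1, Dag1, Pax7, Cdh15 and Lep were chosen after their values were seen. So were the lower fibre markers and the denervation genes that did not pass. In lists, a gene was represented by its probe set with the highest mean.

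Alternatives were the deposited values, median centring, an offset of 16, no filter or the 50th percentile, a robust prior, eBayes lacking the trend, a replicate block, 1 probe set per gene, and each array left out, where a lone array was assumed to vary like the other pair. Including probe sets of several genes was added after the data were seen, as were the list counts under each setting.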

Additional observations from a re-analysis of the deposited data

How the results depend on the processing

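All 9 genes kept their direction under each scaling, the offset and each array left out. The median difference over the 9 ran from 0.14 to 0.39 with 1 array left out, and the Chrng difference minus the Chrne difference from -0.72 to -0.53. The probe sets past the adjusted threshold, 323 as reported, were 544 with the values as deposited, 913 after median centring (where the median of all tested probe sets was 0.10), 145 without a filter, and between 37 and 958 with 1 array left out. They were 0 with probe sets of several genes included, where the prior degrees of freedom were 4.12 in place of 7.73. With the replicate number as a block they were 1235, Rapsn joined Chrna1, Chrnb1 and Musk past the threshold, and 18 fibre markers passed. The deviations of same-numbered arrays correlated at 0.17, but the labels do not say what the number marks, so no pairing was assumed. Signals near the filter value, as for Chrnd, and low signals above it, as for Chrng, Rapsn, Chrne and Dok7, limit what the arrays can show.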
